A study of Rattus norvegicus with 13 samples.

Results

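Transcript levels of 10 cardiac transcription factors were measured in left ventricular tissue, the chamber wall that drives blood into the aorta, of male rats aged 45 weeks. The genes were Gata4, Gata6, Mef2a, Mef2c, Mef2d, Nkx2-5, Hand2, Tbx5, Tbx20 and Tbx3. They were chosen by name, as every spot on the arrays that carries one of these gene names and is not a control spot. All 10 were found among the 26115 gene names of the array, each with a single probe, and all 10 passed the filter on dim probes that left 15367 genes to be tested. The rats belonged to the ADBR3 overexpressing group, labelled for extra β3-adrenergic receptor, a receptor for catecholamines, or to the wild-type (WT) group. The labels give both groups the same tissue, sex and age and name no other treatment. The sources used here do not give the strain, the promoter or the way in which the receptor was overexpressed.

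The 13 single-colour Agilent arrays held 7 ADBR3 hearts and 6 WT hearts. Hearts 1 and 2 of each group were repeat labelings of the RNA of 1 rat, so their values were averaged. ADBR3 heart 4 and WT heart 5 were repeat hybridizations whose partner array the labels do not name, and they were left out of the main comparison. This left 5 ADBR3 rats, numbered 1, 3, 5, 6 and 7, and 4 WT rats, numbered 1, 3, 4 and 6, with 1 value each. Every level below is a processed signal on the log2 scale, set relative to its array's own 75th percentile, and every difference is ADBR3 minus WT on that log2 scale. Because a probe's brightness also depends on its sequence, each level was compared between rats within 1 gene only. The 75th percentile of the arrays lay between 760.4 and 908.7 intensity units, and 55.2% to 67.8% of their spots were well above background. The number of rats limits the precision. The array probe for Adrb3, the gene of the receptor, was well above background on 1 of 7 ADBR3 arrays and 0 of 6 WT arrays, so no difference between the groups could be measured with it.

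These factors bind the control regions of heart genes, often side by side and in contact with each other. Most of them help to set up and maintain the muscle identity of the cardiomyocyte, whereas Tbx3 is a repressor that keeps the conduction system distinct. GATA factors are zinc finger proteins, MEF2 factors are MADS box proteins, Nkx2-5 carries a homeodomain, Hand2 a basic helix-loop-helix domain and the Tbx proteins a T-box. In the adult ventricle several of them take part in the growth response to load. Much of their regulation acts on the protein, for example by phosphorylation or by binding of histone deacetylases, which an array of transcripts does not measure.

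Each probe was 60 bases long. On build rn4, as the scanner files give it, Gata4 was probed at chr15:42473004-42473063 on the minus strand, Gata6 at chr18:2534368-2534427 on the plus strand, and Mef2c at chr2:12329521-12329580 on the minus strand. Mef2d was probed at chr2:180246846-180246905 on the plus strand, Nkx2-5 at chr10:16608802-16608861 on the plus strand, and Hand2 at chr16:36324365-36324424 on the minus strand. The files give no position for the Mef2a probe. The files do not say which exon or untranslated region a probe lies in. The T-box genes are shown by sequence because they hold both the most positive and the most negative difference of the set, and because members of a family that share a DNA-binding domain could in principle share probe sequence. The Tbx5 probe maps to chr12:37957220-37969093 on the minus strand, a span of 11874 bases that exceeds the probe and therefore crosses at least 1 intron. The Tbx20 probe maps to chr8:24392876-24392935 and the Tbx3 probe to chr12:38155887-38155946, both on the minus strand. Capitals mark, in each probe, 1 longest run of bases shared with another of the 3. The Tbx5 probe shares runs of 7 bases with both Tbx20 and Tbx3. Only its run with Tbx20 is in capitals, and the run marked in Tbx3 stands in lower case near the end of Tbx5.
Tbx5: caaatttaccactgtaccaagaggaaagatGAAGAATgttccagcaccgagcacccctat
Tbx20: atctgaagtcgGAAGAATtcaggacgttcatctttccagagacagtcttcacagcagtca
Tbx3: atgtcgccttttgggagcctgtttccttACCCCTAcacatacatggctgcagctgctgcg
The shared runs were 7 bases long, and no pair among the 45 pairs of the 10 probes shared a longer run. The GC content was 45.0% for the Tbx5 and Tbx20 probes and 55% for the Tbx3 probe. For the other 7 probes it was 20% for Mef2a, 35.0% for Gata6, 38.3% for Mef2d, 45.0% for Gata4, Mef2c and Hand2, and 53.3% for Nkx2-5. The Mef2a probe is unusual in this respect, since 0.0967% of all probes kept had a GC content as low or lower and the median was 45%.

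None of the 10 factors differed between ADBR3 and WT hearts at an adjusted p of 0.05 in limma (0 of 10), where 0.00651% of the 15367 genes tested did (1 gene, higher in ADBR3 hearts). Adjusted p-values of the factors ranged from 0.497 to 0.98. Without adjustment, 1 of 10 factors had a p under 0.05, Tbx3 with a lower level in ADBR3 hearts, against 9.44% of all genes in either direction and 6.29% in that one. The levels of the ADBR3 and WT rats overlapped for all 10 factors, while the groups were fully apart for 3.52% of all genes (1.22% with the ADBR3 rats higher and 2.3% with them lower). In total, 8 factors had a positive and 2 a negative difference, against 46.7% of all genes with a positive one. The median difference was 0.025 for the factors and -0.0089 for all genes, and the median absolute difference was 0.046 for the factors and 0.080 for all genes. The counts of signs of the factors were the same with median scaling and with quantile normalization. The differences of all genes moved up as well, so the 46.7% holds for the main scaling only. With median scaling the median difference was 0.067 for the factors and 0.033 for all genes. With quantile normalization it was 0.041 and 0.016. Gata6 and Tbx5 took a negative sign when background was corrected with normexp before scaling to the 75th percentile. In a piece of tissue, fewer cells of a type and less transcript per cell cannot be told apart in these values.

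For 9 of the 10 factors the 95% interval of the difference lay within 1.5-fold in either direction. For Tbx3 it reached to a level 1.52-fold lower in ADBR3 hearts. For 7 factors the difference itself was under 0.1 on the log2 scale. The plot of differences with their intervals shows Mef2a, Tbx20 and Tbx3 as the factors whose intervals lay mostly on 1 side of 0.

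**Figure D1:**
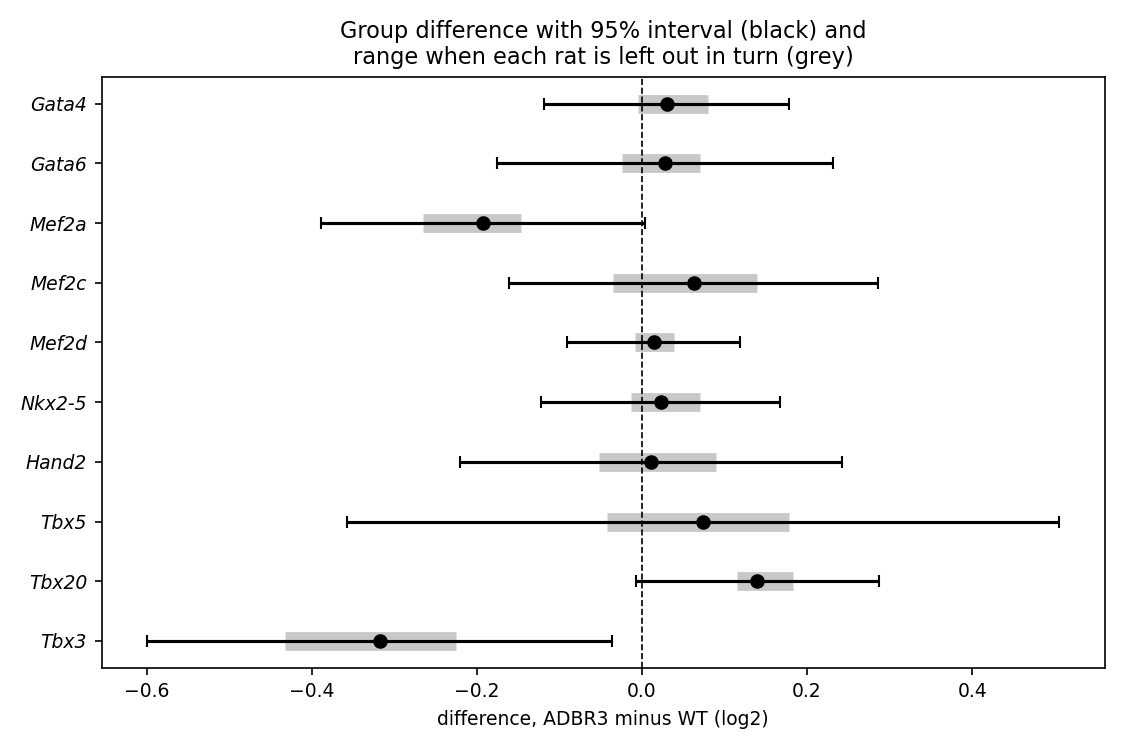
Difference between ADBR3 and WT rats (log2, ADBR3 minus WT) for each factor, with the 95% interval in black (n = 5 ADBR3 and 4 WT rats) and the range of the difference over fits that each leave out 1 rat in grey. The Tbx3 interval ends at -0.036 and is the only one of the 10 that does not include 0.

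Gata4 is a central activator of cardiomyocyte genes such as the natriuretic peptides and takes part in hypertrophic growth. Its levels were 1.69, 1.74, 1.59, 1.6 and 1.54 in ADBR3 rats 1, 3, 5, 6 and 7, against 1.75, 1.58, 1.59 and 1.5 in WT rats 1, 3, 4 and 6. The highest and the lowest of the 9 rats were both WT, so the WT range enclosed all ADBR3 rats. The means were 1.63 ± 0.080 in ADBR3 rats (SD, n = 5) and 1.6 ± 0.11 in WT rats (SD, n = 4). Their difference was 0.030 with a 95% interval of -0.12 to 0.18 (adjusted p = 0.908). Gata6 overlaps with Gata4 in function and is also found in vascular smooth muscle. It measured -1.92, -1.74, -1.56, -1.94 and -1.68 in the ADBR3 rats and -1.91, -1.74, -1.69 and -1.85 in the WT rats. Here the ADBR3 rats enclosed the WT range, with 2 of them above it and 2 below it. The difference was 0.028 with an interval of -0.18 to 0.23 (adjusted p = 0.944), from means of -1.77 ± 0.16 in ADBR3 rats and -1.80 ± 0.10 in WT rats (SD).

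**Figure D2:**
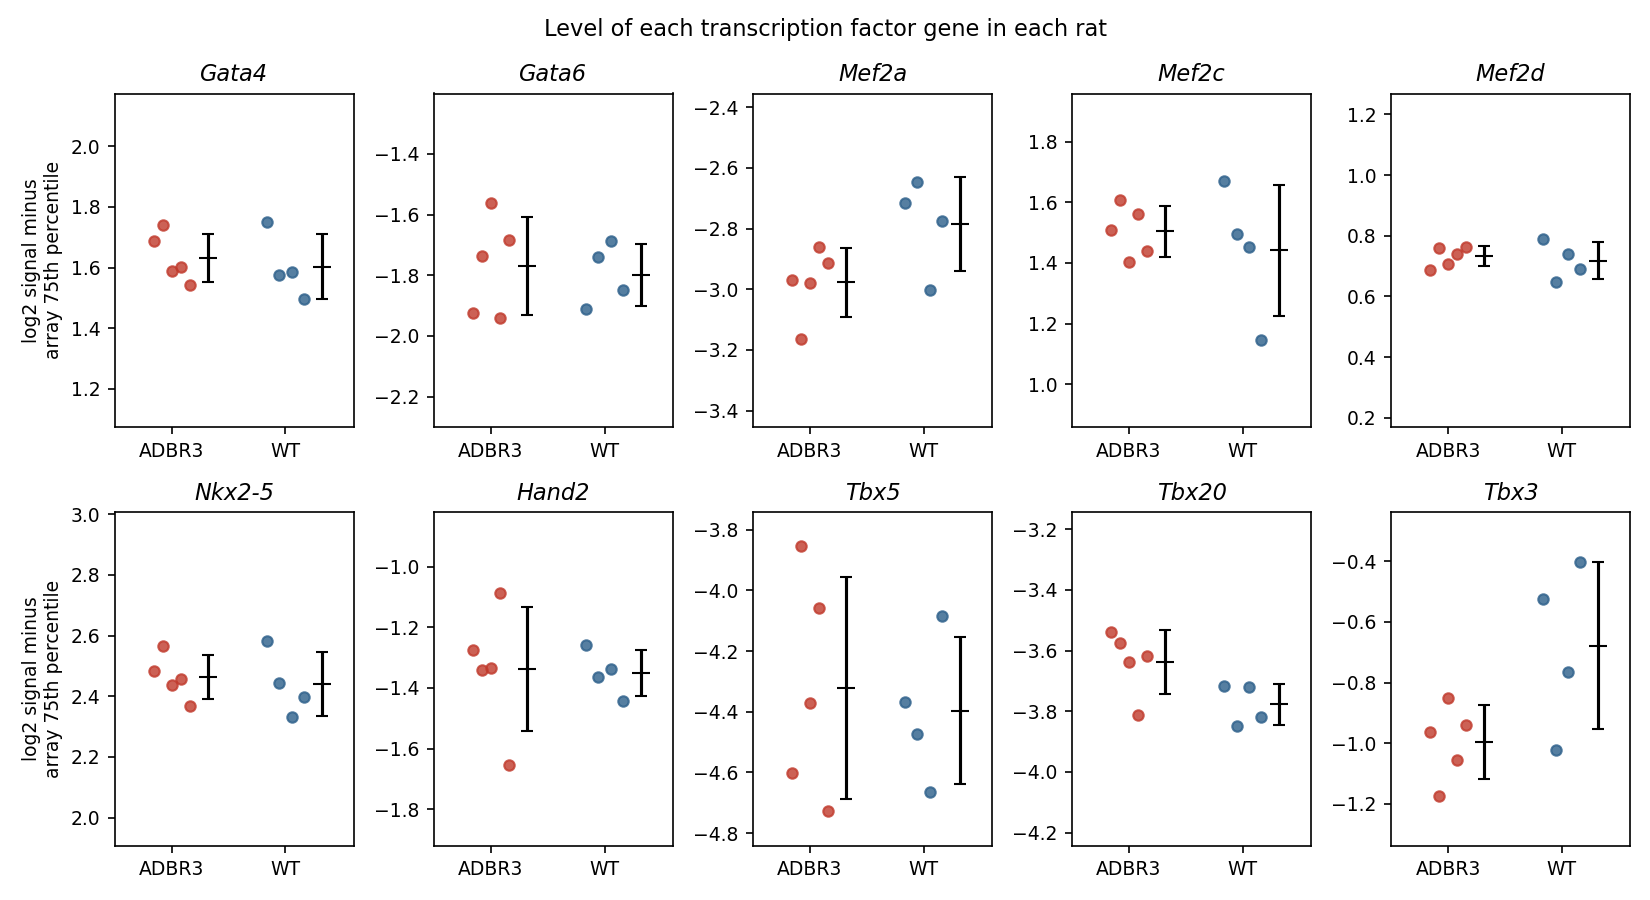
Level of each factor in each rat (log2, relative to the 75th percentile of its array), with ADBR3 rats in red and WT rats in blue and the mean ± SD of each group beside the points (n = 5 and 4). All panels span the same number of log2 units and differ only in their centre. The groups overlap in all 10 panels, and in the Tbx20 panel 4 of 5 ADBR3 rats lie above the highest WT rat.

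MEF2 factors bind A/T-rich sites in muscle genes and are held in check by class II histone deacetylases until stress signals export those from the nucleus. Mef2c, the member needed earliest in heart development in the mouse, measured 1.51, 1.61, 1.40, 1.56 and 1.44 in the ADBR3 rats, against 1.67, 1.5, 1.45 and 1.15 in the WT rats. All 5 ADBR3 rats lay inside the WT range, whose lower end was set by WT rat 6. The difference was 0.063 with an interval of -0.16 to 0.29 (adjusted p = 0.855), and it turned to -0.035 without WT rat 6. Mef2d, which mediates stress-dependent growth of the adult mouse heart, was the steadiest of the set, with 0.69, 0.76, 0.71, 0.74 and 0.76 in the ADBR3 rats and 0.79, 0.65, 0.74 and 0.69 in the WT rats. The WT rats again enclosed the ADBR3 rats. Its SD between rats within a group was 0.047, which only 3.06% of the genes tested undercut or matched. The difference of 0.015 therefore had the narrowest interval of the 10 factors, -0.090 to 0.12 (adjusted p = 0.943). The sign of this difference rested on the fit, with -0.035 when the slide was a term and -0.012 when the scan day was.

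Mef2a, an isoform abundant in adult heart muscle, had the second largest difference. It measured -2.97, -3.16, -2.98, -2.86 and -2.91 in the ADBR3 rats, against -2.71, -2.65, -3.00 and -2.78 in the WT rats. All 5 ADBR3 rats lay below the WT mean, but WT rat 4 lay below all of them except ADBR3 rat 3. The means were -2.98 ± 0.11 in ADBR3 rats (SD, n = 5) and -2.79 ± 0.15 in WT rats (SD, n = 4). The difference was -0.19 with an interval of -0.39 to 0.0034 (limma, adjusted p = 0.526). The arrays were spread over 5 slides and 2 scan days, and the sign of this difference varied between slides. Within the 3 slides that held both groups it was 0.036 (1 ADBR3 and 2 WT values), 0.091 (1 and 1) and -0.091 (3 and 1), and within the scan days it was -0.097 (3 and 1) and -0.12 (4 and 4). The within-batch values of the third such slide and of the second scan day include the repeat hybridizations. With the slide as a term over all 13 arrays the difference was 0.010, and with the scan day it was -0.099. Both fits took each repeat hybridization as a further rat, though the labels do not name the array it repeats. The labelings of ADBR3 rat 1, which were hybridized on different slides and scanned on different days, gave -2.71 and -3.23 for this gene.

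Nkx2-5 is among the earliest markers of the heart lineage and works together with Gata4 on many promoters. It measured 2.48, 2.57, 2.44, 2.46 and 2.37 in the ADBR3 rats, against 2.58, 2.44, 2.33 and 2.40 in the WT rats. Again the WT rats held both the highest and the lowest value. The difference was 0.023 with an interval of -0.12 to 0.17 (adjusted p = 0.933). Hand2, which the mouse needs to form the right ventricle, measured -1.27, -1.34, -1.33, -1.09 and -1.65 in the ADBR3 rats and -1.26, -1.36, -1.34 and -1.44 in the WT rats. ADBR3 rats 6 and 7 stood at the high and the low end, and the other 3 ADBR3 rats lay within the WT range. The group means, -1.34 ± 0.20 in ADBR3 rats (SD, n = 5) and -1.35 ± 0.076 in WT rats (SD, n = 4), differed by 0.011, the smallest difference of the 10, with an interval of -0.22 to 0.24 (adjusted p = 0.98).

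The T-box factors held the widest spread between rats, in Tbx5, and the most positive and most negative differences, in Tbx20 and Tbx3. Tbx5 activates genes of the working and conducting heart muscle, and its loss of function in people causes Holt-Oram syndrome of heart and limb. Its levels were -4.60, -3.86, -4.37, -4.06 and -4.73 in the ADBR3 rats, against -4.37, -4.47, -4.66 and -4.08 in the WT rats. The rats of both groups were scattered over the same range, with ADBR3 rats at both ends. The difference was 0.074 with an interval of -0.36 to 0.51 (adjusted p = 0.925), the widest interval of the set. The probe was dim, and the SD of its duplicate spots within an array had a median of 0.21. It was well above background on 7 of 7 ADBR3 arrays and 5 of 6 WT arrays, counting arrays with at least 0.5 of the spots so marked. On ADBR3 hearts 2, 4 and 7 and WT heart 6 only 1 of the 2 spots was so marked. The spots of WT heart 6, the highest WT level, had an SD of 1.21.

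Tbx20 maintains adult cardiomyocyte function in the mouse. It measured -3.54, -3.58, -3.64, -3.81 and -3.62 in the ADBR3 rats, against -3.72, -3.85, -3.72 and -3.82 in the WT rats. Except for ADBR3 rat 6, every ADBR3 rat lay above the highest WT rat. The means were -3.64 ± 0.11 in ADBR3 rats (SD, n = 5) and -3.78 ± 0.067 in WT rats (SD, n = 4), and the difference was 0.14 with an interval of -0.0071 to 0.29 (limma, adjusted p = 0.529). The SE of this difference was 0.065, against 0.10 with a trended robust variance in limma. With the scan day as a term the SE was 0.13, and with the slide as a term 0.15. The difference moved with both the background correction and the scaling. It was 0.20 with quantile normalization, 0.0093 with normexp and the 75th percentile, and 0.082 with normexp and quantile normalization. Within the slides it was 0.37, 0.10 and -0.24, and within the scan days 0.096 and 0.037, over the numbers of values given for Mef2a. The repeat hybridizations ran the other way, with -3.95 on ADBR3 heart 4 and -3.56 on WT heart 5. Like Tbx5, this gene was well above background on 7 of 7 ADBR3 arrays and 5 of 6 WT arrays, and the missing array was the second labeling of WT rat 1 for both genes. On WT heart 6 only 1 of its 2 spots was so marked.

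Tbx3 is a repressor that keeps the conduction system distinct from the working muscle, and in the mouse it represses Nppa and Gja5. It had the largest difference of the 10 factors. Its levels were -0.96, -1.17, -0.85, -1.06 and -0.94 in the ADBR3 rats, against -0.52, -1.02, -0.77 and -0.40 in the WT rats. All 5 ADBR3 rats lay below the WT mean and 2 lay below the lowest WT rat, while WT rat 3 lay among the ADBR3 rats. The means were -0.996 ± 0.12 in ADBR3 rats (SD, n = 5) and -0.68 ± 0.27 in WT rats (SD, n = 4). The difference of -0.32 (SE 0.12), equal to a 1.25-fold lower mean level in ADBR3 hearts, had an interval of -0.60 to -0.036 (limma, adjusted p = 0.497). It kept its sign within every batch that held both groups, with -0.33, -0.17 and -0.13 within the slides and -0.32 and -0.19 within the scan days. The numbers of values were those given for Mef2a, and the batches share arrays. WT rat 4 was the only WT value of both the second such slide and the first scan day. The only WT value of the third such slide was the repeat hybridization WT heart 5. With the slide as a term it was -0.22, and with the scan day -0.22. Leaving out 1 rat at a time gave -0.43 to -0.23, and the smallest of these came without WT rat 6, the largest without WT rat 3.

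The WT rats highest in Tbx3, rats 1 and 6, were also those with the lowest shares of spots well above background, 59.4% and 58.7%, against 61.5% to 64.8% in the other 7 rats. Of the WT rat 1 labelings, the second had a share of 55.2% and a Tbx3 level of -0.48, and the first 63.6% and -0.56. Both arrays and that of WT rat 6 shared a slide with the first labeling of ADBR3 rat 1, which at -0.79 was the highest ADBR3 array that entered the comparison. The second labeling of that rat, on another slide, gave -1.13. The part of the share of bright spots in the Tbx3 difference was not tested.

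**Figure D3:**
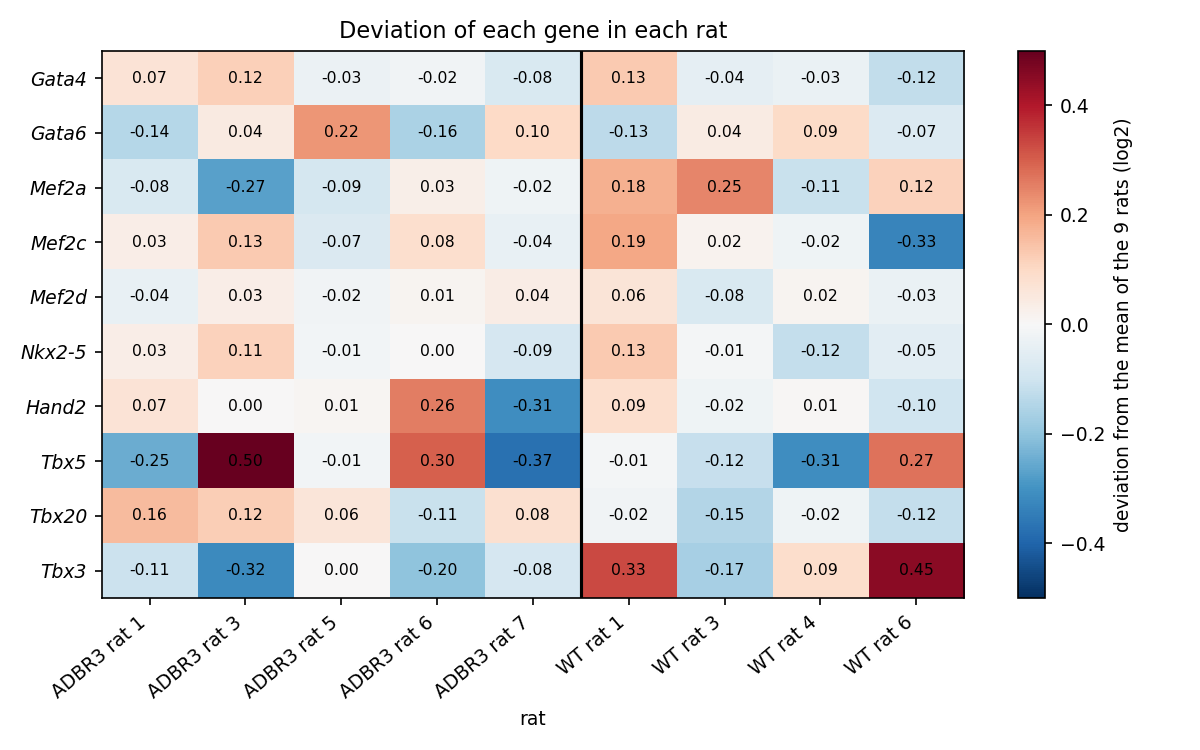
Deviation of each factor in each rat from its mean over the 9 rats (log2), with red above and blue below the mean, ADBR3 rats left of the line and WT rats right of it. Tbx5 in ADBR3 rat 3 (0.50) and Tbx3 in WT rat 6 (0.45) are the largest deviations, while Mef2d stays within 0.08 of its mean in every rat.

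Repeat labelings of the same RNA showed how far the values of 1 rat can lie apart. The labelings of ADBR3 rat 1 were on different slides and scan days, and those of WT rat 1 shared a slide and scan day. The values of ADBR3 rat 1 can therefore include effects of slide and scan day, which those of WT rat 1 do not. For Gata4, Gata6, Mef2c, Nkx2-5 and Hand2 the second labeling differed from the first by 0.0085 to 0.013 in ADBR3 rat 1 and by 0.0032 to 0.084 in WT rat 1. The same differences were 0.52 and 0.28 for Mef2a, 0.29 and 0.35 for Tbx20, 0.34 and 0.083 for Tbx3, 0.19 and 0.097 for Tbx5, and 0.089 and 0.015 for Mef2d. Over all probes kept, the median was 0.088 in ADBR3 rat 1 and 0.083 in WT rat 1, and the Mef2a difference in ADBR3 rat 1 was larger than that of 95.7% of probes. For Mef2a, Mef2d, Tbx5 and Tbx20 the difference between the groups was smaller than the difference between labelings of 1 RNA in either rat. For Tbx3 it was smaller than that of ADBR3 rat 1 and larger than that of WT rat 1. A difference between labelings compares single arrays, whereas the difference between the groups compares means over several rats, which averaging makes steadier. Their sizes are therefore not directly comparable. The plot of repeat labelings sets these values side by side.

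**Figure D4:**
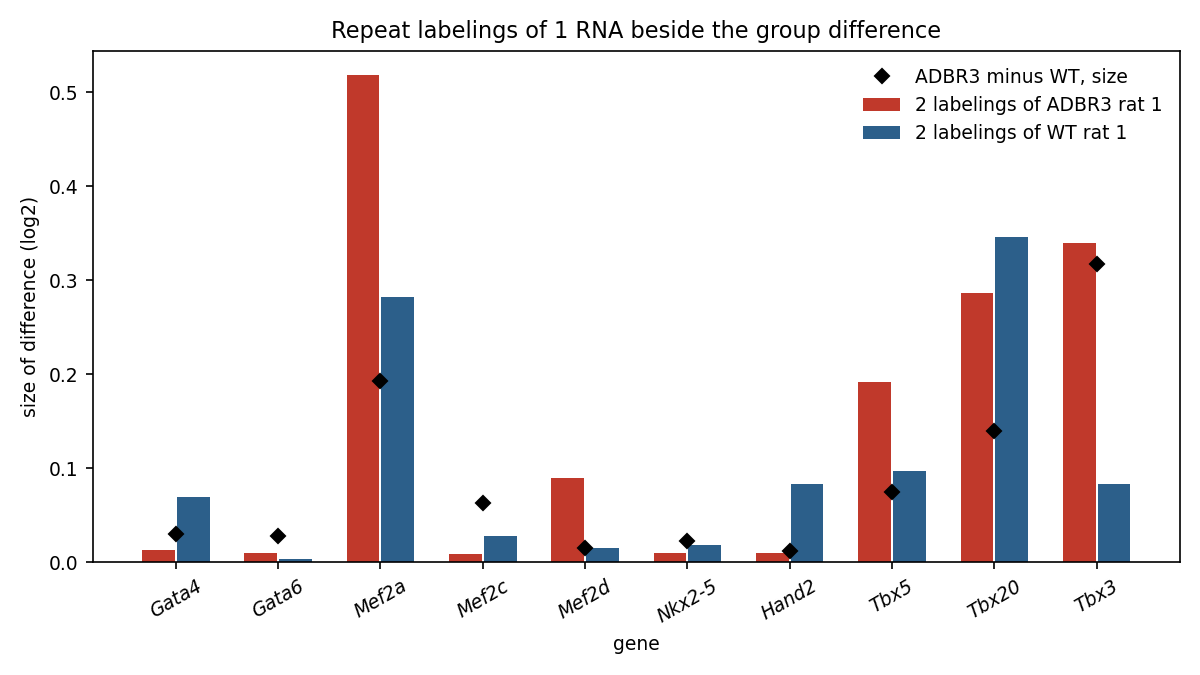
Absolute log2 difference between the labelings of ADBR3 rat 1 (red bars) and of WT rat 1 (blue bars), with the absolute difference between the groups as black diamonds. The bars of Mef2a, Mef2d, Tbx5 and Tbx20 exceed their diamonds in both rats. Bars compare single arrays and diamonds compare group means. The labelings of ADBR3 rat 1 were on different slides and scan days, and those of WT rat 1 shared a slide and scan day.

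Gata4 and Mef2c were printed as 10 spots per array and the other 8 factors as 2 spots. The median SD between spots of a probe on the same array was 0.067 for Gata4 and Mef2c, 0.036 for Hand2, 0.037 for Mef2d, 0.041 for Tbx20 and 0.047 for Nkx2-5. It was 0.076 for Mef2a, 0.094 for Gata6, 0.16 for Tbx3 and 0.21 for Tbx5. For Mef2a and Tbx20 these SDs were smaller than the differences between labelings. Between rats, the SD within groups had a median of 0.14 over the 10 factors and of 0.13 over all genes tested. Tbx5, at 0.32, was more variable than 87.4% of genes and Tbx3, at 0.20, more than 71.5%. Gata4, Nkx2-5 and Tbx20 stood at the other side, near the 29.3, 27.3 and 28.4 percentiles. None of the spots of the 10 factors was saturated (0), and 5 spots of Gata4 over all arrays had been marked as outliers by the scanner software.

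Across the 9 rats, the highest correlations among the factors were those of Gata4, which correlated with Nkx2-5 at r = 0.868 (exact permutation p = 0.0031) and rho = 0.85, and with Mef2c at r = 0.835 (exact permutation p = 0.0018) and rho = 0.867. Neither passed Benjamini-Hochberg adjustment over the 45 pairs of factors, with an adjusted p of 0.0696 for each r and 0.124 for each rho, and no pair did (0 of 45, with 4 under 0.05 before adjustment). Mef2c and Nkx2-5 correlated at r = 0.661 (exact permutation p = 0.049, adjusted p = 0.552) and rho = 0.833 (adjusted p = 0.124). The rats did not fall in order of group, since WT rat 1 and ADBR3 rat 3 were highest and WT rat 6 and ADBR3 rat 7 among the lowest for Gata4. With group means removed, r was 0.865 for Gata4 with Nkx2-5 and 0.83 for Gata4 with Mef2c. Without the 2 rats farthest from the Gata4 median, r was 0.587 and 0.727. Among the 6 rats of the second scan day r was 0.951 and 0.86, and the first day had too few rats for a value. Median scaling gave 0.93 and 0.887, and quantile normalization 0.894 and 0.883.

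A further 3 measures of the rats were set against these 3 genes, 9 relations in all. The mean level of 12 ventricular cardiomyocyte markers correlated at r = 0.052 with Gata4, -0.062 with Mef2c and -0.087 with Nkx2-5. The distance between the 75th percentile and the median of the array correlated at r = 0.486, 0.463 and 0.545 with the same genes. The share of spots well above background correlated at r = -0.19, 0.193 and -0.453 with these genes, and at -0.754, -0.614 and -0.778 without the 2 rats farthest from the median share, so these values depended on those rats. The part of this share in the correlations between the genes was not tested. All 9 adjusted permutation p-values were 0.485 or higher. The opposite relation of Mef2a and Tbx20 (r = -0.743, rho = -0.65, exact permutation p = 0.0232, adjusted p = 0.348) was -0.027 among the 6 rats of the second scan day.

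Of 11090 gene symbols, Emid1, Ceacam9 and Asxl2 followed Tbx3 most closely over the 9 rats, at r = 0.938, 0.918 and 0.905. These values describe the 9 rats, which share arrays, slides and scaling with Tbx3, and carry no test. Emid1 codes for a matrix protein with an EMI domain, Ceacam9 for an adhesion protein of the carcinoembryonic antigen family and Asxl2 for a chromatin regulator of the Polycomb group. Their differences were -0.17, -0.16 and -0.17 on the log2 scale, a direction that follows from their choice by likeness to Tbx3 in the same rats.

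Other transcription factors of heart development were read in the same fit. Of 34 listed, 32 were on the array and 26 were tested, with 11 positive and 15 negative differences and none called (0), where 0.00651% of all genes were. None had an unadjusted p under 0.05 either (0 of 26), where 9.44% of all genes had one in either direction. The median difference was -0.042, against -0.0089 for all genes. Those with the smallest p were Rarb, a retinoic acid receptor, at -0.22 (adjusted p = 0.529), Wt1, a factor of the epicardium, at -0.17 (adjusted p = 0.529), and Foxp1, a forkhead repressor, at -0.10 (adjusted p = 0.583). Among relatives of the 10 factors, Gata5 measured -0.063, Mef2b -0.043, Hand1 0.079, Tbx1 -0.087, Tbx2 -0.10 and Tbx18 0.062. Tbx2, a repressor closely related to Tbx3, had an adjusted p of 0.787. The 6 that were too dim to be tested included Isl1, Prox1, Shox2, Nfatc2 and Esrrg.

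Cofactors, inhibitors and upstream regulators of the factors were divided evenly. Of 40 listed, 34 were tested, with 17 positive and 17 negative differences, a median of 0.002 and none called (0). An unadjusted p under 0.05 was found for 3 of them, all positive, where 9.44% of all genes had one in either direction and 3.15% in that direction. Smad4, the common mediator of BMP and TGFβ signals, measured -3.67 ± 0.092 in ADBR3 rats and -3.89 ± 0.093 in WT rats (SD), a difference of 0.22 (limma, adjusted p = 0.384). Its groups did not overlap, as for 1.22% of all genes in that direction. Bmpr1a, a BMP receptor upstream of Nkx2-5 and the GATA factors, measured 0.20 (adjusted p = 0.385), and Csrp3, a muscle LIM protein of the Z-disc and nucleus, 0.13 (adjusted p = 0.526). The histone deacetylases that were tested, Hdac3, Hdac5 and Hdac7, measured 0.035, 0.062 and -0.067, and the acetyltransferase Ep300 -0.029. Of the GATA cofactors, Zfpm1 measured 0.051 and Zfpm2 -0.27 (adjusted p = 0.731), and the coactivator Myocd measured 0.013.

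Known target genes of the factors were also not called (0 of 42 tested, of 43 listed), with 22 positive and 20 negative differences and a median of 0.013. An unadjusted p under 0.05 was found for 4, all positive, where 9.44% of all genes had one in either direction and 3.15% in that direction. Mybpc3, a thick filament protein, measured 5.71 ± 0.053 in ADBR3 rats and 5.53 ± 0.084 in WT rats (SD), a difference of 0.18 (limma, adjusted p = 0.393), with groups that did not overlap, as for 1.22% of all genes in that direction. Adora1, an adenosine receptor, measured 0.20 (adjusted p = 0.499), Xirp1, an actin-binding protein of the intercalated disc, 0.16 (adjusted p = 0.52), and Csrp3 again 0.13. Sarcomere targets such as Myh6 (-0.0075), Tnnt2 (-0.027), Actc1 (-0.043) and Tnni3 (0.012) lay close to 0. Nppa, the atrial natriuretic peptide, measured 0.74 with an SE of 0.54 (adjusted p = 0.667), and its levels spread from 2.76 to 5.83 in the ADBR3 rats and from 3.14 to 4.37 in the WT rats. Gja5, the connexin of the conduction system and the atria, measured 0.12 (adjusted p = 0.659).

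**Figure D5:**
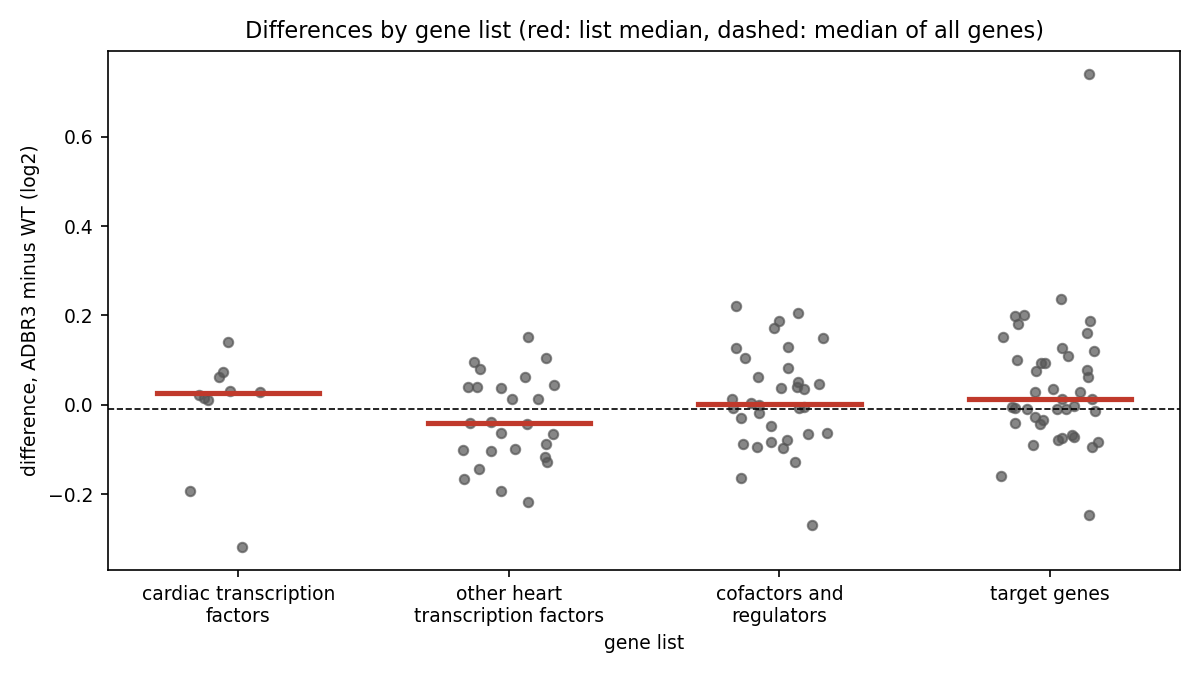
Difference (log2, ADBR3 minus WT) of each tested gene in 4 gene lists, with the list median as a red line (0.025, -0.042, 0.002 and 0.013 from left to right) and the median of all genes as a dashed line at -0.0089. The single point above 0.7 is Nppa.

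Markers of the cell types that a piece of ventricle could hold were read beside the factors. All 12 ventricular cardiomyocyte markers were bright enough to be tested, with 5 positive and 7 negative differences and a median of -0.011. Their mean level ranged from 7.12 to 7.20 in the ADBR3 rats and from 6.97 to 7.20 in the WT rats, and those with the smallest p were Mybpc3, given above, and Ttn at 0.13 (adjusted p = 0.509). Of 18 conduction system and atrial markers, 11 were tested, with 8 positive and 3 negative differences and a median of 0.062. The other 7, among them Cntn2, Cacna1d, Shox2, Isl1 and Bmp10, were not well above background in enough rats. The mean level of the 11 ranged from 0.24 to 1.24 in the ADBR3 rats and from 0.23 to 0.72 in the WT rats, and its part in the Tbx3 difference was not tested.

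Among the other cell types, all 11 fibroblast markers had positive differences (median 0.11, Pdgfra 0.11 and Postn 0.67). Postn was well above background on 6 of 7 ADBR3 arrays and 3 of 6 WT arrays, so its WT level was measured on only some arrays. The mean level of the list ranged from 0.26 to 0.68 in the ADBR3 rats and from 0.15 to 0.43 in the WT rats. Smooth muscle and pericyte markers had 8 positive and 1 negative differences of 9 tested (median 0.063, Kcnj8 0.16 and Des 0.063), with mean levels of 0.77 to 1.16 in ADBR3 rats and 0.78 to 0.92 in WT rats. Endothelial markers had 2 positive and 9 negative differences (median -0.034, Egfl7 -0.18 and Tek -0.23), with mean levels of 0.060 to 0.22 in ADBR3 rats and 0.19 to 0.26 in WT rats. Macrophage markers had 3 positive and 7 negative differences (median -0.13, C1qa -0.19 and Cd163 0.32), with mean levels of -0.74 to -0.33 in ADBR3 rats and -0.71 to -0.28 in WT rats. Only 5 of 12 lymphocyte markers were bright enough to be tested, and all 5 were negative (median -0.39, Ptprc -0.39 and Cd8a -0.78). Of these, 4 had an unadjusted p under 0.05, where 9.44% of all genes had one in either direction and 6.29% in that direction. Cd8a was well above background on 3 of 7 ADBR3 arrays and 4 of 6 WT arrays. The 5 markers had mean levels of -3.37 to -2.72 in ADBR3 rats and -2.96 to -2.29 in WT rats. Red blood cell markers had 4 positive and 1 negative differences (Slc4a1 -0.61 and Hba1 0.032), and adipocyte markers 3 positive and 1 negative (Cfd -0.10 and Retn 0.42). Nerve and mesothelium markers had 3 positive and 4 negative differences of 7 tested (median -0.17, Wt1 -0.17). No gene of these lists passed the adjusted threshold, and their part in the levels of the 10 factors was not tested.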

How the data were processed

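Total RNA of left ventricle was labelled with Cy3 and hybridized to 13 single-colour Agilent arrays, per the labels' protocols. The deposited scanner files hold spot intensity. Per the file headers they were written by Agilent Feature Extraction, version 10.7.1.1, for design 028279 and build rn4. Their processed signal is an intensity after background subtraction, per the file headers, with no scaling between arrays recorded. The authors' deposited series table holds natural log values (column medians 5.695 to 5.73, 20000 probes) with a scale between arrays that no source used here states, so it was used as an alternative only.

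For the 58717 spots that are not controls, log2 of the processed signal minus the array's 75th percentile was computed and spots of a probe were averaged, without spots marked as outliers where another remained. An array counted as having a probe above background with at least 0.5 of the spots so marked, and probes with this in at least 4 of 9 rats were kept. This gave 17587 of 30367 probes, and each gene was represented by its kept probe with the highest mean. Labelings of 1 rat were averaged. In limma (version 3.58.1, R version 4.3.3), lmFit and eBayes were run on the 15367 genes with rats as replicates and a single group term. P-values were adjusted by Benjamini-Hochberg across these genes, with 0.05 as the threshold. Intervals are 95% intervals of that fit. Correlations over rats were tested with exact two-sided permutation tests. Adrb3 did not pass the filter. Nothing in the labels says how the rats were bred or housed, so p-values measure the spread between the values of these rats. Most rats had a single array, so that spread can include differences of labeling, slide and scan day.

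Slide and scan day came from the file headers. Sequences and rn4 positions of probes are those of the deposited scanner files, and the rat genes were looked up in RefSeq (GRCr8), where all 10 symbols were found. Genes named were the 10 factors, Adrb3, from each list those past the threshold or else the 3 with the smallest p (2 in each cell marker list), and the 3 symbols most like Tbx3. Some listed genes are not reported here. Further list members and relatives were named after their values were seen. The factors and lists were chosen with earlier results of these data known. The fit was tested on simulated data. Scripts used the data.table package (1.17.8), Python 3.11.15, numpy 2.4.6, pandas 2.3.3, scipy 1.17.1, statsmodels 0.14.6 and matplotlib 3.10.9. Alternatives covered scaling, background correction, the dim-probe filter, labelings, variance model, slide, scan day, rats left out and the authors' values.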

Additional observations from a re-analysis of the deposited data

Results flagged for a closer look

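No level of the 10 factors stood apart from the rest of its group by Dixon's criterion. Over the factors and the other genes of the naming rule, 80 groups were examined and 3 values stood apart, where chance alone gives about 1 in 20. Kcnj8 was lowest in ADBR3 rat 1 at 1.57, with the next ADBR3 rat at 1.92. Hba1 was highest in ADBR3 rat 5 at 8.28, with the next at 8.06. Adora1 was highest in WT rat 3 at -1.94, with the next WT rat at -2.21.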

How the results depend on the processing

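None of the 10 factors was called under any of the 24 alternatives (0 in each), and the smallest adjusted p that any factor reached was 0.33, for Mef2a without WT rat 4. Of 238 differences of the factors recomputed, 20 changed sign, and only Tbx3 and Tbx20 never did. Each factor has 1 probe, so some of these settings could not move its difference. They were the dim-probe filters, the mean of a gene's probes, the variance model and the fit per probe. The count of 20 in 238 is therefore no rate of sign change. With normexp and the 75th percentile Gata6 was -0.0041 and Tbx5 -0.046. With the slide as a term Mef2a was 0.010, Mef2d -0.035 and Hand2 -0.055, and with the scan day as a term Mef2d was -0.012. Leaving out each rat in turn gave -0.0052 to 0.080 for Gata4, -0.024 to 0.071 for Gata6, -0.27 to -0.15 for Mef2a, -0.035 to 0.14 for Mef2c, -0.0084 to 0.038 for Mef2d, -0.013 to 0.071 for Nkx2-5, -0.052 to 0.090 for Hand2, -0.043 to 0.18 for Tbx5, 0.12 to 0.18 for Tbx20 and -0.43 to -0.23 for Tbx3. The count of all genes called, 1 in the comparison reported, was 2 with normexp and either scaling, 2 with the authors' values, 8 with a trended robust variance, 2 with the slide and 5 with the scan day as a term, and 0 to 13 when each rat was left out, with 13 without ADBR3 rat 3 and 0 without WT rat 3, 4 or 6 or ADBR3 rat 6 or 7. The cause of these shifts was not tested. The cofactor list's median was 0.043 with median scaling, 0.034 with the mean of a gene's probes and 0.023 without WT rat 4. Heart numbers shared by the groups were tried as a replicate block over rats 1, 3 and 6. Deviations from the group means correlated at 0.106, 0.0347 and 0.124 between rats of the same number, so the numbers were not taken as pairing the rats. With the replicate block, as without it over the same rats, Gata6 was -0.034 and the count of genes called was 0. Requiring signal in all 9 rats left no value for Tbx5 and Tbx20. The fits per probe were added after seeing the data. Tbx5 and Tbx20, the only factors not well above background on every array, are limited by dim signal.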

Other observations

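The repeat hybridizations gave further values for the factors. They were left out of the main comparison, but entered the fits with the slide or scan day as a term and some within-batch values. ADBR3 heart 4 measured -1.34 for Gata6, above all 9 rats compared, 1.68 for Gata4, 2.55 for Nkx2-5, 1.55 for Mef2c and -0.77 for Tbx3. WT heart 5 measured 0.86 for Mef2d, above all 9 rats compared, 1.64 for Gata4, 2.41 for Nkx2-5, 1.45 for Mef2c and -0.77 for Tbx3. For Tbx3, whose difference was the largest of the 10 between the rats, these arrays of either group lay within 0.01 of each other.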
